A study of Saccharomyces cerevisiae with 12 samples.

Results

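The direct comparison of a yeast strain lacking SNF5 with one lacking SWP82 is described here, gene by gene, from RNA sequencing. It takes the 3 libraries of each deletion, 6 of the 12 libraries of the series, by their column names, and every gene of the authors' expression table. Of its 5935 genes 5820 passed the filter on low values and were tested, and 115 did not. The series asks what loss of Snf5 does to the SWI/SNF complex and to its expression profile. It also holds 3 wild-type libraries, whose values are given for orientation, and 3 libraries of an snf2 deletion, whose expression values are not given. Both groups entered the filter on low values and the fits over all 12 libraries, with their estimate of the spread.

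All strains are Saccharomyces cerevisiae of the BY4741 background, labelled MATa with the alleles his3Δ1, leu2Δ0, met15Δ0 and ura3Δ0. In both deletion strains kanMX4 replaces the named gene, and both are labelled as carrying SNF6 with a tag of 2 FLAG copies marked by LEU2. The wild type is labelled with the same kind of tag on SNF2, so the tagged subunit differs between it and either deletion. Cultures were independent biological triplicates grown at 30 °C to log phase, at an OD600 of 0.75 to 1.0. The labels do not say whether a group's cultures came from 1 clone of the strain.

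SWI/SNF is an ATP-driven machine that slides and evicts nucleosomes, and it is recruited by transcription factors to inducible promoters. Snf2 is the motor, Snf5 is a core subunit conserved from yeast to humans, and Swp82 is a subunit of the fungal complex with no such wide conservation. Genes that depend on the complex in yeast were first found through mating-type switching (HO) and sucrose fermentation (SUC2), which gave it its name.

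Reads on genes numbered 9012746 to 11095420 in the 6 libraries. Values are scaled CPM, that is CPM (reads of a gene relative to all reads of its library) divided by a factor for the composition of the library, and 1 read was worth 0.0917 to 0.118 of them. The factor was 0.907 to 1.06 over the 6 libraries and larger in each snf5 library than in each swp82 library. Levels are given as mean ± SD of 3 libraries or as the value in each library. Log2 fold changes are snf5 deletion minus swp82 deletion ± SE on the log2(value + 1) scale, which understates the change of low genes, and adjusted p is limma's, with Benjamini-Hochberg adjustment over all genes tested. A gene is called at an adjusted p under 0.05.

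The deleted genes were as labelled. SNF5 (chrII:779667-782384) had 0, 2 and 0 reads in the snf5 libraries and 928, 819 and 967 in the swp82 libraries, so that its level was 0.0624% of that in the swp82 deletion (exact 95% interval 0.00755 to 0.226%, counting error only). SWP82 (chrVI:36803-38674) had no read in any swp82 library and 62.7 ± 0.822 scaled CPM in the snf5 deletion, at least 571-fold higher against a floor of 3 reads over the group. The marker LEU2 (chrIII:91324-92418) had 833, 621 and 953 reads in the snf5 libraries and 0 in each swp82 library, at least 680-fold higher by the same floor. The LEU2 result goes against the label of the swp82 strain, which gives it a LEU2-marked tag. Whether that strain carries the SNF6 tag is therefore uncertain, and the tag may differ between the deletions too. By these reads, whether a strain makes Leu2, the enzyme of the third step of leucine synthesis, differed together with the deletion. The 2 cannot be told apart by the direct comparison. The wild type had 669, 703 and 536 LEU2 reads, and the part of LEU2 in any difference was not tested.

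HIS3, of which the strains are labelled to carry the his3Δ1 allele, was at 121 ± 15.4 scaled CPM in the snf5 deletion and 75.9 ± 11.4 in the swp82 deletion (log2 0.67 ± 0.12, limma adjusted p = 0.00149). Of the other 10 subunit genes of SWI/SNF 1 was called, where 41.9% of all genes were: ARP7, an actin-related subunit shared with the RSC remodeler, rose by a log2 value of 0.18 ± 0.05 (limma adjusted p = 0.0129), and it was not called when the 6 libraries were fitted alone. SNF2 was at 157, 162 and 141 scaled CPM in the snf5 libraries and 129, 127 and 143 in the swp82 libraries, overlapping groups (0.20 ± 0.08, limma adjusted p = 0.0697). The genes of SWI1, SWI3, SNF6, SNF11, SNF12, TAF14, ARP9 and RTT102 lay between -0.19 and 0.11 on the log2 scale and none of them was called. Without the scaling factor 8 of the 12 subunit genes, SWP82 included, were called higher.

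The libraries carried the markers of the labelled mating type, at a lower level in the snf5 deletion. The 7 MATa markers (STE2, BAR1, MFA1, MFA2, STE6, AGA2 and ASG7) were present in every library and summed to 1905 to 1975 scaled CPM in the snf5 and 3905 to 4809 in the swp82 libraries. The MATalpha pheromone genes MF(ALPHA)1 and MF(ALPHA)2 were at or below 1.39 scaled CPM in all 6 libraries, and the other MATalpha markers, STE3 and SAG1, are given with the mating genes.

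The promoter windows that follow belong to 5 gene groups that moved in this comparison, 1 window for each. They run from 350 to 51 bases before the annotated start of the gene in assembly R64 (sacCer3), read 5′ to 3′ on the strand of the gene, and capitals mark matches on either strand to the motif named. A window may hold part of a neighbouring gene. Over 5623 such windows of tested genes, CACGTG, the E-box bound by Cbf1 and Pho4, was in 4.02%. TGTGGC, the core bound by Met31 and Met32, was in 8.57%. TGACTC, bound by Gcn4, was in 8.27%, and TGAAACA, the pheromone response element bound by Ste12, in 7.34%. The site of Leu3, CCG and CGG with 4 bases between, was in 1.80%, and TCCGCGGA, bound by Pdr1 and Pdr3, in 0.338%. A match describes the letters and does not show binding.

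MET10, a subunit of sulfite reductase, on chrVI:212962-213261 (plus strand), has E-boxes starting 249 and 231 bases and a Met31/Met32 core starting 205 bases before the gene, with no overlap among them.
MET10: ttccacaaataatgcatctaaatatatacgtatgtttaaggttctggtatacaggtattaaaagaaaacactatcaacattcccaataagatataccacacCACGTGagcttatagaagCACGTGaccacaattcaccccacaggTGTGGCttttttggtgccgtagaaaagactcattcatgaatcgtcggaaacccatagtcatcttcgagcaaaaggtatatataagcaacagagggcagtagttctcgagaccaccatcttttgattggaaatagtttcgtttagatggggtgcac
ARG1, argininosuccinate synthetase, on chrXV:218861-219160 (plus strand), has Gcn4 sites starting 345 and 274 bases before the gene.
ARG1: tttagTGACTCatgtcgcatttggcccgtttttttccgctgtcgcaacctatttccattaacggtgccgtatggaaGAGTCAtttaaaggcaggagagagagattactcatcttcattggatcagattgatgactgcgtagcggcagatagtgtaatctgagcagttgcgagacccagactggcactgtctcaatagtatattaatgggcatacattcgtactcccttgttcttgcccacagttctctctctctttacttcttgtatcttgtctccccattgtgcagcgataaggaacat
LEU1, isopropylmalate isomerase, on chrVII:478703-479002 (minus strand), has Leu3 sites starting 217 and 187 bases before the gene.
LEU1: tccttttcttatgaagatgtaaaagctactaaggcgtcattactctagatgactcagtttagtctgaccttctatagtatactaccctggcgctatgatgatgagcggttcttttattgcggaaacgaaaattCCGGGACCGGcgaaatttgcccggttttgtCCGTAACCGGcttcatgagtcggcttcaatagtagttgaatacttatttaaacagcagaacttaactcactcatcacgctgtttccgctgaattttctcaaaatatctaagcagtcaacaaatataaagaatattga
SST2, which damps the pheromone signal, on chrXII:1041417-1041716 (minus strand), has a pheromone response element starting 245 bases before the gene.
SST2: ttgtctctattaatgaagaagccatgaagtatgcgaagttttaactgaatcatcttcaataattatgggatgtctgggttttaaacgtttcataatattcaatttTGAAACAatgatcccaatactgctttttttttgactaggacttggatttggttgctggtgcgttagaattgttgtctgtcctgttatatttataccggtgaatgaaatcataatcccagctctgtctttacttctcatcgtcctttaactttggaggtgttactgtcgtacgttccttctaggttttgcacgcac
PDR5, a multidrug exporter, on chrXV:619490-619789 (plus strand), has a Pdr1/Pdr3 site starting 313 bases before the gene.
PDR5: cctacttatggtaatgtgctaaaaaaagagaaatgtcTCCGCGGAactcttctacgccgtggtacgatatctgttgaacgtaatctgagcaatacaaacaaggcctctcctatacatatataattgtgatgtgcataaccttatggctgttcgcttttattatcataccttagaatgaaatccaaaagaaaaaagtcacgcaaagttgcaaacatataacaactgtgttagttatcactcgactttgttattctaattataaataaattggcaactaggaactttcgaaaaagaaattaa

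The 2 deletions differed widely but mostly by little. Of 5820 genes 2438 were called, 41.9%. In the snf5 deletion 1189 (20.4%) were higher and 1249 (21.5%) lower. The counts of each gene list below are to be read beside these shares, unless another fit is named. With the replicate block over 12 libraries 23.6% of all genes were higher and 27% lower. With the 6 libraries fitted alone the shares were 11% and 11.5%. Counts without the scaling factor go beside the 2282 higher and 599 lower genes given below, and those without 1 library beside the totals in the last section. Of those called, 1708 differed by less than 1.5-fold and 299 (5.14% of all genes) by 2-fold or more, 152 higher (2.61%) and 147 lower (2.53%). At 4-fold and above, 21 genes were higher and 46 lower. The values of both groups did not overlap for 2534 genes, 43.5%. The direction of small differences depended on the scaling: without the authors' factor the median of all genes moved from -0.01 to 0.16 on the log2 scale, and 2282 genes were higher and 599 lower. With upper-quartile scaling the median was 0.05, with 1446 higher and 1029 lower.

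**Figure D1:**
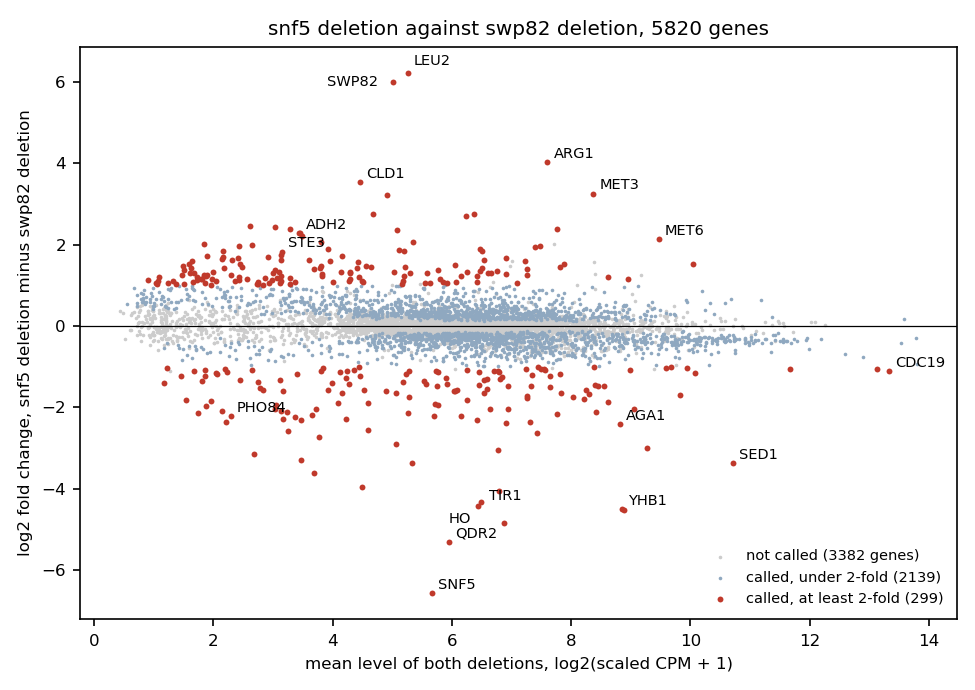
Log2 fold change of each tested gene, snf5 deletion minus swp82 deletion, against its mean level in both deletions on the log2(scaled CPM + 1) scale, 1 point per gene. The 299 genes called at 2-fold or more are red and spread over the whole range of levels, genes called at less than 2-fold are blue-grey and genes not called are light grey.

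Against the wild type the same fit called 1704 genes (29.3%) in the snf5 deletion and 203 (3.49%; 82 higher, 1.41%, and 121 lower, 2.08%) in the swp82 deletion, and for the snf5 deletion 862 were higher (14.8%) and 842 lower (14.5%). These comparisons share the wild-type libraries with each other and the deletion libraries with the direct comparison, so their values are set side by side only. For 88 of the 152 genes higher by 2-fold in the snf5 deletion the wild-type mean lay between both deletions and nearer to the swp82 deletion, and for 41 it lay beyond the swp82 deletion. For the 147 lower genes these numbers were 87 and 53. The wild-type mean was nearer to the snf5 deletion, or beyond it, for 23 higher and 7 lower genes.

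The genes furthest down in the snf5 deletion, after SNF5 itself, included several that stood near their wild-type level in the swp82 deletion. QDR2 (chrIX:132244-133872), a multidrug transporter of the plasma membrane, was at 2.08, 1.74 and 2.23 scaled CPM in the snf5 libraries and at 113, 102 and 141 in the swp82 libraries. Every snf5 library was thus far below every swp82 library, 59.0-fold between the means (log2 -5.30 ± 0.11, limma adjusted p = 7.4e-11), and the wild type was at 125 ± 6.26. YHB1 (chrVII:959904-961103), the flavohaemoglobin that detoxifies nitric oxide, was at 34.3, 36.3 and 43.5 against 777, 871 and 1003 (-4.50 ± 0.11, limma adjusted p = 2.32e-10). Its groups did not overlap, and the wild type was at 752 ± 54.9.

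ZEO1, a peripheral membrane protein, was at 36.9, 43.8 and 34.3 scaled CPM in the snf5 libraries and 839, 910 and 969 in the swp82 libraries (-4.53 ± 0.11). HO (chrIV:46271-48031), the endonuclease of mating-type switching, was at 5.10, 7.98 and 7.06 against 167, 167 and 157 (-4.44 ± 0.13). In both genes the swp82 libraries lay around the wild-type means of 912 ± 56 and 164 ± 11.4. SED1, a major structural protein of the cell wall, was at 347, 312 and 223 against 3769, 2929 and 2492 (-3.38 ± 0.19, limma adjusted p = 2.95e-07). For SED1 the wild type was at 5790 ± 502, and the swp82 deletion was called below it (-0.94, limma adjusted p = 0.025).

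In 2 of the lowest genes the swp82 deletion was above the wild type. YGR035C, of unknown function, was at 5.47, 6.14 and 9.0 scaled CPM in the snf5 and 194, 249 and 231 in the swp82 libraries, with the wild type at 121 ± 12.2 between them. GPX2, a glutathione peroxidase, was at 10.9, 11.5 and 12.1 against 219, 242 and 165, with the wild type at 113 ± 5.42. Their rises over the wild type in the swp82 deletion were called at log2 values of 0.88 (limma adjusted p = 0.011) and 0.86 (0.0033). The remaining genes of the lowest 15 were TIR1, BSC1, NDJ1, ARO10, AZR1, RSB1 and PRM7, at log2 values of -4.33 to -3.06. BSC1 and PRM7 lie close together on chromosome IV and shared a spread between libraries: the swp82 libraries gave 15.4, 65.4 and 43.0 for BSC1 and 74.3, 323 and 191 for PRM7, all above the snf5 libraries.

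**Figure D2:**
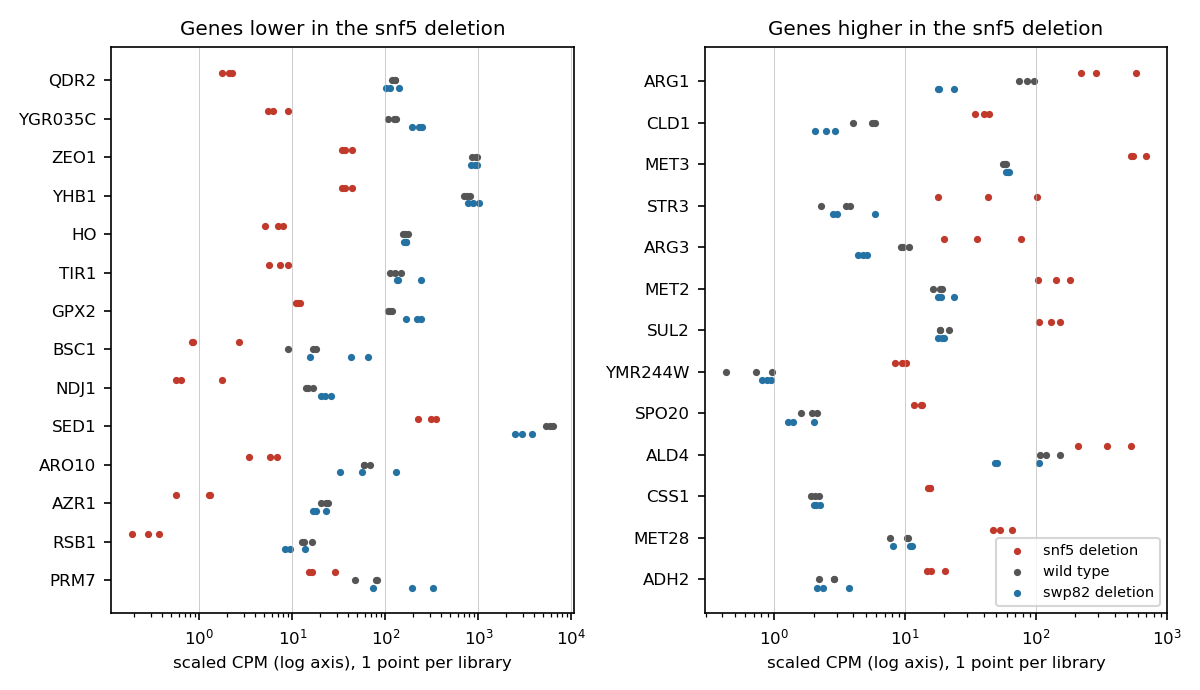
Level in each library, in scaled CPM on a log axis, of the genes with the lowest (left) and highest (right) log2 fold changes by the naming rule, leaving out SNF5, SWP82 and LEU2. Red points are the snf5 deletion, blue the swp82 deletion and grey the wild type; red and blue do not overlap for any gene shown.

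The genes furthest up in the snf5 deletion, after LEU2 and SWP82, were 13 by the naming rule, and 7 of them belong to arginine or sulfur metabolism. ARG1 (chrXV:219211-220473), whose promoter window is printed above, was at 222, 286 and 588 scaled CPM in the snf5 libraries and at 23.7, 17.8 and 18.1 in the swp82 libraries. The snf5 libraries differed among themselves by more than 2-fold, and each was well above every swp82 library (log2 4.02 ± 0.30, limma adjusted p = 2.76e-06). The wild type, at 85.7 ± 11.7, lay between: the snf5 deletion was above it by 1.96 (limma adjusted p = 0.00062) and the swp82 deletion below it by a log2 difference of -2.06 (0.0046). CLD1, a phospholipase of cardiolipin, was at 40.1, 43.6 and 34.4 against 2.47, 2.90 and 2.06 (3.54 ± 0.14), with the wild type at 5.17 ± 1.0. The others were MET3, STR3, ARG3, MET2, SUL2, YMR244W, SPO20, ALD4, CSS1, MET28 and ADH2, at 2.28 to 3.25; reads of CSS1 and ADH2 are uncertain because of near-identical relatives.

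Of 15 genes of arginine synthesis and breakdown 9 rose and 2 fell, with a median log2 value of 0.64 against -0.01 over all genes. ARG3, ornithine carbamoyltransferase, was at 19.7, 35.4 and 77.6 scaled CPM in the snf5 and 4.35, 5.11 and 4.81 in the swp82 libraries (2.76 ± 0.35, limma adjusted p = 0.000129). As for ARG1, snf5 replicate 3 was the highest library, and the groups did not overlap. ARG5,6, ARG4 and ARG7 rose by 1.62, 1.44 and 1.35. CPA1, a subunit of carbamoyl phosphate synthetase, was at 147, 206 and 287 against 165, 210 and 149, overlapping values (0.25 ± 0.21, limma adjusted p = 0.349).

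The breakdown genes of arginine moved in opposite directions. CAR2, ornithine transaminase, was at 22.5, 18.3 and 11.1 scaled CPM in the snf5 and 128, 62.9 and 65.0 in the swp82 libraries and fell (-2.21 ± 0.30, limma adjusted p = 0.000237). CAR1, arginase, was at 254, 271 and 315 against 229, 144 and 154 and rose (0.69 ± 0.15, limma adjusted p = 0.00375). Set beside the wild type, the median of the arginine list was 0.27 in the snf5 and -0.38 in the swp82 deletion, and 3 members, ARG1 and ARG4 (-0.68) among them, were called lower than the wild type in the swp82 deletion. Of the 12 members whose windows held a Gcn4 site 8 rose and 2 fell; of the 3 without, 1 rose.

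Genes of sulfate uptake and methionine synthesis rose together. Of 32 members 23 rose, 14 of them by 2-fold or more, and 2 fell, with a median of 0.65. The strains all carry met15Δ0, an allele that blocks the incorporation of sulfide. MET3 (chrX:456239-457774), ATP sulfurylase, which starts sulfate reduction, was at 533, 555 and 701 scaled CPM in the snf5 libraries and at 61.7, 62.2 and 59.7 in the swp82 libraries (3.25 ± 0.09, limma adjusted p = 8.45e-10). The swp82 libraries lay close to the wild type, at 57.8 ± 1.68, and every snf5 library was far above both.

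By role, the sulfate permease SUL2 was at 105, 130 and 154 against 19.8, 19.1 and 17.9 scaled CPM (2.70 ± 0.14). The reducing enzymes MET14, MET16, MET5 and MET10 rose by 1.85, 0.98, 1.61 and 1.93. Among the genes of homocysteine and methionine synthesis, MET2 was at 105, 143 and 184 against 23.8, 18.8 and 17.9, and MET6, methionine synthase, at 829, 1148 and 1493 against 244, 289 and 237 (2.13 ± 0.17). SAM2, one of a pair of S-adenosylmethionine synthetases with similar sequences, rose by 1.52, while SAM1 was at 573, 745 and 1088 against 870, 1369 and 1322 with overlapping groups (-0.59 ± 0.23, limma adjusted p = 0.0565). SAM1 was called lower with a replicate block (adjusted p = 0.00443).

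Of the regulators of sulfur genes, MET28 and MET32 rose by 2.35 and 1.22, and the inhibitory ubiquitin ligase subunit MET30 by 0.45. MET4, the activator itself, was at 172, 193 and 226 against 178, 181 and 180 and was not called (0.12 ± 0.08). CYS4, cystathionine beta-synthase, which leads away from homocysteine to cysteine, went the other way, at 515, 601 and 842 against 1119, 1445 and 1380 (-1.03 ± 0.15, limma adjusted p = 0.0004). The second member that fell, MET31, was lost from the call when any of 3 libraries was left out, snf5 replicate 1, swp82 replicate 2 or swp82 replicate 3, and 4 members fell without snf5 replicate 3. Of 21 members with a Met31/Met32 core in their window 17 rose, and of the 11 without it 6. Of 15 with an E-box 13 rose, and of the 17 without it 10. Beside the wild type, the median of the list was 0.83 in the snf5 deletion, with 23 members higher, and 0.08 in the swp82 deletion, with none higher and 1 lower.

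**Figure D3:**
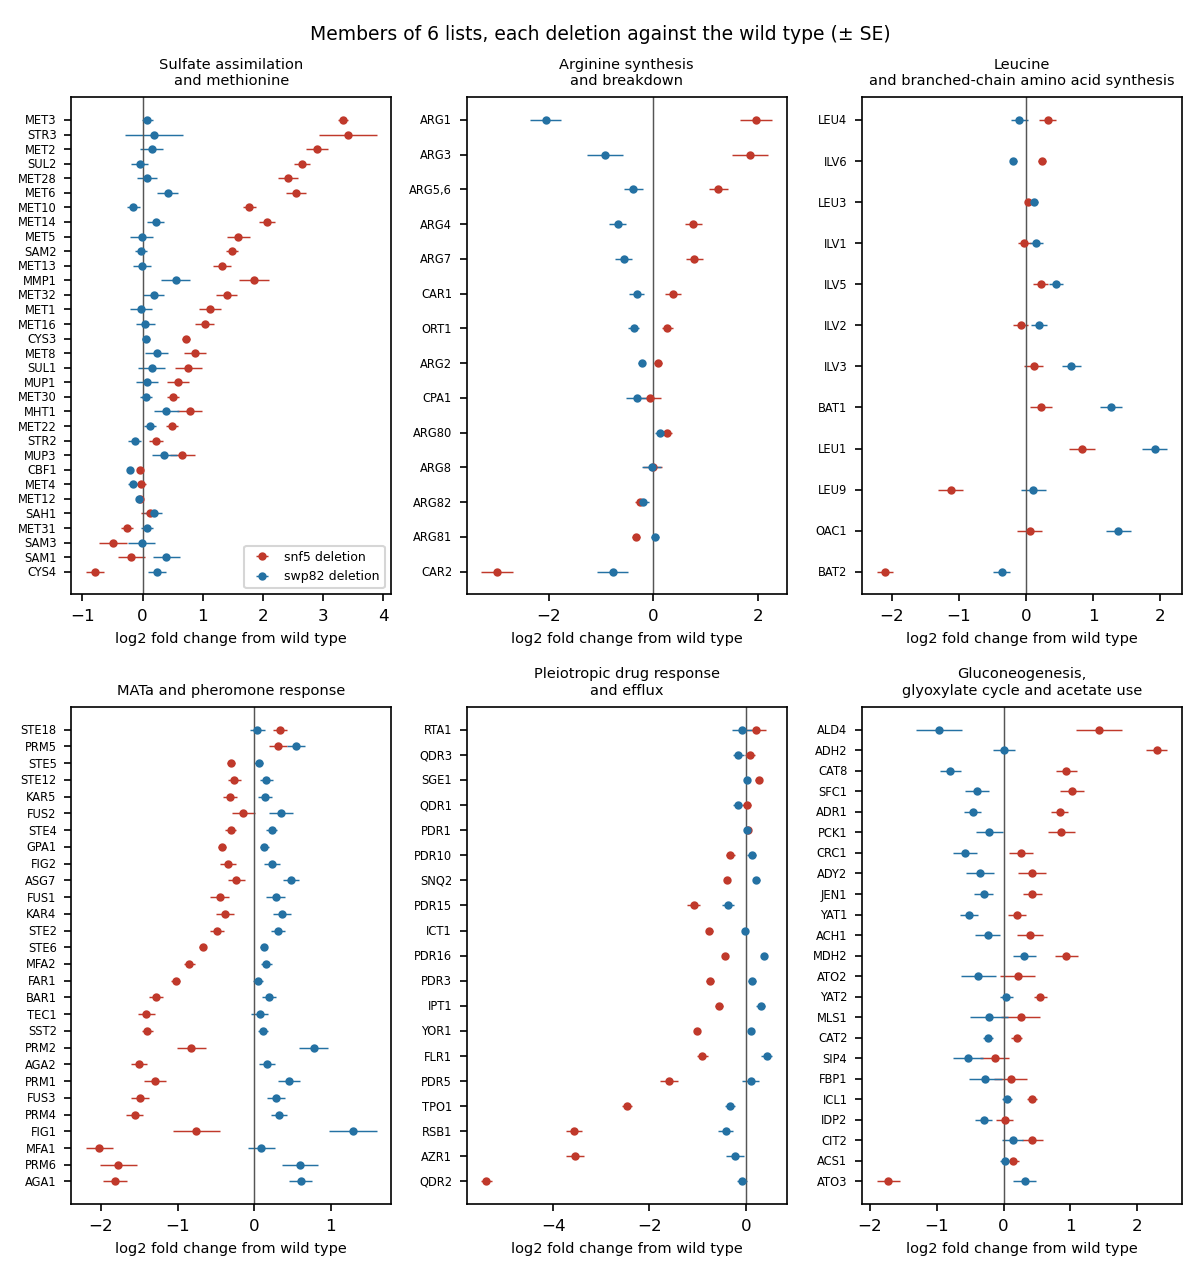
Log2 fold change from the wild type (± SE) of members of 6 gene lists in the snf5 deletion (red) and the swp82 deletion (blue), ordered by the difference between both, with the wild type at 0. The sulfur and drug efflux genes of the swp82 deletion sit near 0, most of the arginine genes shown are above 0 in the snf5 and below it in the swp82 deletion, and OAC1, LEU1 and BAT1 are displaced in the swp82 deletion.

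Of 12 other genes of leucine, isoleucine and valine synthesis 6 fell and 2 rose, with a median of -0.42. BAT2, the cytosolic branched-chain transaminase, was at 127, 117 and 110 scaled CPM in the snf5 and 488, 403 and 313 in the swp82 libraries, against 507 in the wild type (-1.74 ± 0.13, limma adjusted p = 2.12e-06). LEU1 was at 250, 270 and 475 against 597, 667 and 767 (-1.08 ± 0.19, limma adjusted p = 0.00131), and the mitochondrial carrier OAC1 at 45.5, 57.3 and 91.5 against 147, 163 and 160 (-1.32 ± 0.19). In LEU1 and OAC1, unlike BAT2, the swp82 deletion stood apart from the wild type, which was at 178 ± 4.27 for LEU1 and 59.7 ± 4.29 for OAC1. The swp82 deletion was above the wild type by 1.92 for LEU1 (limma adjusted p = 0.00038), 1.37 for OAC1 (0.0029) and 1.27 for the mitochondrial transaminase BAT1 (0.0021). With these, 4 of the 12 members were called above the wild type in the swp82 deletion and none below it. In the snf5 deletion 2 were called above the wild type and 2 below it.

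LEU9, an isopropylmalate synthase, was at 83.0, 117 and 162 against 241, 298 and 289 with the wild type at 255, so that it fell (-1.23 ± 0.19). Its paralog LEU4 rose by 0.43, a call lost without swp82 replicate 2 or 3. The 4 members with a Leu3 site in their window, LEU1, LEU9, BAT1 and BAT2, all fell; LEU3 itself was not called (-0.09 ± 0.05). Without snf5 replicate 3, 10 members of the list were lower. LEU2, absent from the swp82 libraries, belongs to the same pathway, and the part of its absence in these values was not tested.

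The genes of MATa identity and pheromone response fell almost without exception in the snf5 deletion. Of 28 members 26 fell, 14 of them by 2-fold or more, 1 rose and 1 was not called, and the median was -0.90. AGA1, the anchor of the a-agglutinin, was at 122, 153 and 144 scaled CPM in the snf5 libraries and 656, 959 and 667 in the swp82 libraries (-2.42 ± 0.15, limma adjusted p = 7.97e-07). MFA1, a gene of the a-factor pheromone, was at 106, 123 and 152 against 476, 699 and 493 (-2.11 ± 0.18). The groups did not overlap in either gene, and the wild type, at 493 ± 20.9 and 515 ± 33.0, was on the side of the swp82 deletion.

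The falls covered several roles. The receptor STE2 fell by 0.79, the G protein genes GPA1 and STE4 by 0.55 and 0.54, the kinase FUS3 by 1.78 and the scaffold STE5 by 0.36. STE12, the transcription factor of the response, fell by 0.42, the cell-cycle arrest factor FAR1 by 1.07, and BAR1, the protease that degrades alpha-factor, by 1.48. SST2, shown above with its response element, was at 94.5, 113 and 103 against 280, 315 and 292 (-1.51 ± 0.07, limma adjusted p = 6.11e-08). STE18, the gamma subunit of the G protein, was the member that rose, by 0.29, and its call was lost without snf5 replicate 1 or 2 and without swp82 replicate 1 or 2.

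Of 19 members with a pheromone response element in the window 17 fell, and so did all 9 without it. FIG1 differed between the deletions partly from the swp82 side, at 1.70, 1.74 and 2.78 scaled CPM in the snf5 and 6.71, 17.3 and 12.8 in the swp82 libraries (swp82 deletion minus wild type 1.29, limma adjusted p = 0.048). Of the MATalpha genes, the receptor STE3 rose from 3.06, 2.09 and 3.63 in the swp82 to 12.5, 12.7 and 13.1 in the snf5 libraries (1.83 ± 0.17, limma adjusted p = 1.53e-05). SAG1 was at 71.9 to 75.9 against 72.2 to 79.8 and was not called.

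Drug efflux genes also fell as a group. Of 19 members of the pleiotropic drug response 14 fell and 1 rose, with a median of -0.80. Besides QDR2, the largest differences were in transporters: AZR1, linked to azole resistance, was at 0.566, 1.28 and 1.30 scaled CPM against 22.9, 16.7 and 17.8, and RSB1, which exports sphingoid bases, at 0.189, 0.367 and 0.278 against 9.53, 8.35 and 13.5. TPO1, a polyamine exporter, was at 11.4, 14.2 and 14.5 against 58.0, 64.2 and 63.2 (-2.13 ± 0.10). PDR5 was at 382, 403 and 499 against 1356, 1400 and 1369 (-1.69 ± 0.18, limma adjusted p = 4.47e-05).

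For all of these genes the snf5 libraries lay below the swp82 libraries with no overlap. The transcription factor PDR1 was at 128, 132 and 134 against 138, 124 and 125 and was not called (0.03 ± 0.06), while its paralog PDR3 fell by 0.87. PDR5 and PDR3 were the 2 members with a Pdr1/Pdr3 site in their windows. SGE1 was the member that rose, by 0.24, and its call was lost without swp82 replicate 2; 3 members rose without snf5 replicate 1 and 4 without the scaling factor.

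More cell wall genes fell than rose, among structural proteins and among enzymes. Of 27 structural members 12 fell, 10 of them by 2-fold or more, and 8 rose, none by 2-fold. With SED1, TIR1 and ZEO1, the peripheral membrane protein counted on this list, the falls included PST1 (-1.71 ± 0.15), and TIP1, a mannoprotein, at 191, 125 and 186 scaled CPM against 527, 573 and 740 (-1.88 ± 0.32). The members that rose included TIR2 and the flocculin FLO11, by 0.83 and 0.82. Direction therefore differed between close relatives: TIR1, TIR3 and TIR4 fell by 4.33, 1.40 and 0.76. The median of the list, -0.12, became 0.04 without the authors' scaling factor. Of 26 enzymes of glucan and chitin 12 fell and 5 rose (10 and 8 without that factor), with EXG1, a glucanase, at -0.97 ± 0.07 and CRH1, a transglycosylase that links chitin to glucan, at 0.64 ± 0.08.

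Several iron uptake genes of the cell surface fell. Of 30 iron genes 11 fell and 4 rose, with a median of -0.08; without the authors' scaling factor the median was 0.09, 11 rose and 10 fell. The siderophore transporters SIT1, ARN1, ARN2 and ENB1 fell by 2.32, 1.58, 1.44 and 0.98, SIT1 from 162, 125 and 138 scaled CPM in the swp82 to 24.0, 23.2 and 36.8 in the snf5 libraries. The wall mannoproteins FIT2 and FIT3, also counted among the structural wall proteins, fell by 2.16 and 1.45. FET3, the ferroxidase of high-affinity uptake, was at 635, 547 and 714 against 1167, 982 and 1086 (-0.77 ± 0.14), and its partner FTR1 was not called (-0.35 ± 0.14, limma adjusted p = 0.0675, and 0.0244 with a replicate block). FRE4, a reductase, rose from 9.06, 9.51 and 10.9 to 29.3, 30.9 and 33.4 (1.58 ± 0.11). The wild type was lower still at 5.22.

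In iron genes with TGCACCC, the core bound by Aft1, which 1.44% of all windows held, 7 of 14 fell and none rose; of the 16 without it 4 fell and 4 rose. FIT1 was an exception among the FIT genes, at 18.7, 16.7 and 16.2 against 17.5, 18.7 and 20.2, with both deletions below the wild type, at 38.2.

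Phosphate genes moved both ways, 8 down and 6 up of 23, where 21.5% of all genes were down and 20.4% up. Their median of -0.10 became 0.06, with 5 down and 7 up, without the authors' scaling factor. Of the 12 with an E-box in the window 3 rose and 3 fell. PHO84 (chrXIII:24037-25800), the high-affinity phosphate transporter, was at 0.472, 0.734 and 0.928 scaled CPM in the snf5 and 5.88, 5.80 and 9.51 in the swp82 libraries (-2.21 ± 0.18, limma adjusted p = 6.22e-06). Both were far below the wild type, at 95.7, by -5.82 and -3.60 on the log2 scale, so the direct difference separates 2 low levels. PHO84 overlaps a non-coding RNA gene on the other strand, and the strand setting of the counting is not given in the sources used here. PHO3, an acid phosphatase next to PHO5, fell by 1.80, while PHO5 was at 29.7, 29.0 and 30.6 against 16.5, 12.1 and 12.8 and rose (1.07 ± 0.11, limma adjusted p = 3.3e-05).

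Carbon metabolism differed in the direction of more respiration and gluconeogenesis genes and less glycolysis in the snf5 deletion. Of 22 members of glycolysis and fermentation 14 fell and 5 rose, with a median of -0.42. CDC19, the main pyruvate kinase, was at 6812, 5771 and 6925 scaled CPM against 14137, 13974 and 14045, 2.16-fold between the means (log2 -1.12 ± 0.09, limma adjusted p = 3.22e-06). ENO2, TDH2 and TDH3 fell by 1.05, 1.06 and 0.93. Some minor isoforms went up and others did not. PYK2, the second pyruvate kinase, was at 76.7, 48.9 and 27.1 against 27.4, 17.9 and 14.8, values that overlap narrowly (1.23 ± 0.32, limma adjusted p = 0.0116), and PDC6 rose by 1.65 and ENO1 by 1.14. TDH1 was not called (-0.03 ± 0.35), and ADH3 and ADH4 fell by 0.41 and 0.50. Enolase, TDH and ADH genes have near-identical copies, so their division of reads is uncertain.

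Among 23 genes that serve gluconeogenesis, the glyoxylate cycle or the use of acetate 15 rose and 1 fell, with a median of 0.63. ALD4, mitochondrial aldehyde dehydrogenase, was at 531, 348 and 210 scaled CPM against 105, 50.1 and 48.7 (2.39 ± 0.34, limma adjusted p = 0.00035). CAT8 and ADR1, activators of growth without glucose, rose by 1.74 and 1.30, and ADH2, a target of Adr1, by 2.28 from 2.12, 3.71 and 2.35 to 14.7, 20.4 and 15.9. For CAT8 the swp82 deletion was called below the wild type as well (-0.80, limma adjusted p = 0.023). The member that fell was ATO3, a putative ammonium exporter, at 36.0, 44.4 and 63.9 against 180, 210 and 199 (-2.04 ± 0.17).

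In the tricarboxylic acid cycle 10 of 17 genes rose and none fell, and in the respiratory chain and ATP synthase 23 of 38 rose and 2 fell; 4 genes of succinate dehydrogenase are in both lists. LSC2, a succinyl-CoA ligase subunit, was at 242, 224 and 212 scaled CPM against 149, 120 and 101 (0.89 ± 0.12). The wild type, at 191, lay between. List medians against the wild type were -0.01 and 0.04 in the snf5 and -0.34 and -0.27 in the swp82 deletion. NDE1, the external NADH dehydrogenase, fell by 0.83. With the 6 libraries fitted alone 6 of the cycle genes and 15 of the respiratory genes were called higher. Without snf5 replicate 3 or swp82 replicate 3 1 cycle gene fell, and without snf5 replicate 3, swp82 replicate 1 or swp82 replicate 2 1 respiratory gene did.

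Among sugar genes 8 of 22 rose and 3 fell (12 and 1 without the scaling factor). HXK2, the main hexokinase in glucose, was at 2719, 2560 and 3220 scaled CPM against 1750, 1764 and 1899 (0.64 ± 0.08). GLK1, glucokinase, was at 1029, 376 and 142 against 260, 76.0 and 106, overlapping groups with a wide spread (1.56 ± 0.62, limma adjusted p = 0.0625, and 0.00945 with a replicate block). Without snf5 replicate 1, or without swp82 replicate 2 or 3, 5 of the list rose, and without snf5 replicate 3 1 of the list fell. SUC2, invertase, was at 122, 129 and 140 against 95.1, 98.0 and 111 (0.36 ± 0.07, limma adjusted p = 0.00236), with the wild type at 122.

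Of 14 genes known from textbooks as targets of SWI/SNF 8 rose and 2 fell, where 20.4% of all genes rose and 21.5% fell. HO and TIR1 were the 2 that fell. Against the wild type 4 of the 14 were called higher and 3 lower in the snf5 deletion, and none in the swp82 deletion. SER3, of serine synthesis, rose by 0.65; it overlaps SRG1, a regulatory RNA transcribed on the same strand, so reads of the 2 cannot be told apart. INO1 was at 14.7, 10.6 and 11 scaled CPM against 12.4, 10.1 and 12.9 and was not called (0.03 ± 0.12).

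Genes of the ribosome were lower in the snf5 deletion by small steps. Of 137 cytosolic ribosomal protein genes 127 fell and 2 rose, none by 2-fold, with a median of -0.34, and 124 had groups that did not overlap. Their summed level was 153180, 154070 and 175610 scaled CPM in the snf5 libraries and 190990, 206520 and 208750 in the swp82 libraries, and 163360 to 179760 in the wild type. Every snf5 library was below every swp82 library, and the wild type overlapped the snf5 range. RPL7B, for example, was at 196, 223 and 258 against 398, 434 and 389 (-0.85 ± 0.10, limma adjusted p = 6.86e-05). Without the authors' scaling factor 79 fell and 3 rose, with a median of -0.17 where that of all genes was 0.16. Many members have near-identical copies.

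Ribosome biogenesis and stress genes varied widely among replicates. Summed over 71 biogenesis genes the level was 8979, 13125 and 17891 scaled CPM in the snf5 and 14955, 22013 and 21038 in the swp82 libraries, and 12511 to 15815 in the wild type. Over 29 targets of the stress factors Msn2 and Msn4 it was 3817, 1725 and 806 in the snf5, 2112, 1164 and 977 in the swp82 and 3586, 2384 and 2377 in the wild-type libraries. Replicate 1 of each group was thus the highest in stress genes and the lowest in biogenesis genes, and the deletions overlapped. Over 20 trehalose and glycogen genes the sums were 3980, 1927 and 1192 in the snf5 and 1565, 1050 and 1216 in the swp82 libraries. In the wild type these sums were 1739 to 2406. The median of that list against the wild type was 0.05 in the snf5 and -0.52 in the swp82 deletion. What set replicate 1 apart was not tested.

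Of the 71 biogenesis genes 30 fell and none rose, with a median of -0.55. With a replicate block 63 fell. Without snf5 replicate 1, 2 or 3 the numbers were 8, 13 and 63, and without swp82 replicate 1, 2 or 3 they were 59, 2 and 5; 6 fell without the scaling factor and 1 with the 6 libraries fitted alone. UTP22, of the small subunit processome, was at 196, 214 and 236 scaled CPM against 273, 330 and 321 (-0.51 ± 0.08, limma adjusted p = 0.000845), with no overlap.

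Of the 29 stress genes 6 rose, close to the 20.4% of all genes that rose, and 2 fell, with a median of 0.55. With the block 15 rose and 3 fell. AGGGG, the stress response element, was in the windows of 26 members and in 23.1% of all windows; 4 of the 26 rose and 1 fell. Without snf5 replicate 1, 2 or 3 the numbers that rose were 2, 3 and 17, and without swp82 replicate 2 or 3 it was 1 in each case. YGP1, a secreted glycoprotein, and HSP12, a membrane-protecting heat shock protein, were the 2 that fell. YGP1 was at 74.3, 40.6 and 30.4 scaled CPM against 394, 283 and 207 (-2.63 ± 0.31, limma adjusted p = 9.05e-05), and HSP12 at 2.45, 2.66 and 1.21 against 14.5, 24.7 and 4.81 (-2.12 ± 0.52, limma adjusted p = 0.00813). Both deletions were below the wild type, at 615 and 75.2, and the wild-type comparison of HSP12 was called in each. HSP104, a disaggregase, was at 780, 305 and 87.1 against 280, 88.8 and 99.8, overlapping and not called (1.02 ± 0.65).

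Of the trehalose and glycogen genes 7 rose and none fell, with a median of 0.49, and 14 rose with the block. Without snf5 replicate 1, 2 or 3 the numbers were 4, 4 and 17, without swp82 replicate 2 or 3 they were 3 and 3, and with the 6 libraries fitted alone 1 rose. NTH2, a trehalase, was the member with the smallest p, at 89.3, 69.7 and 60.7 scaled CPM against 51.9, 41.8 and 42.7 (0.67 ± 0.13, limma adjusted p = 0.00217). Of 25 heat shock chaperones none rose, 6 rose without snf5 replicate 3, and SSE1 fell by 0.38; with the block 1 rose and 2 fell.

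**Figure D4:**
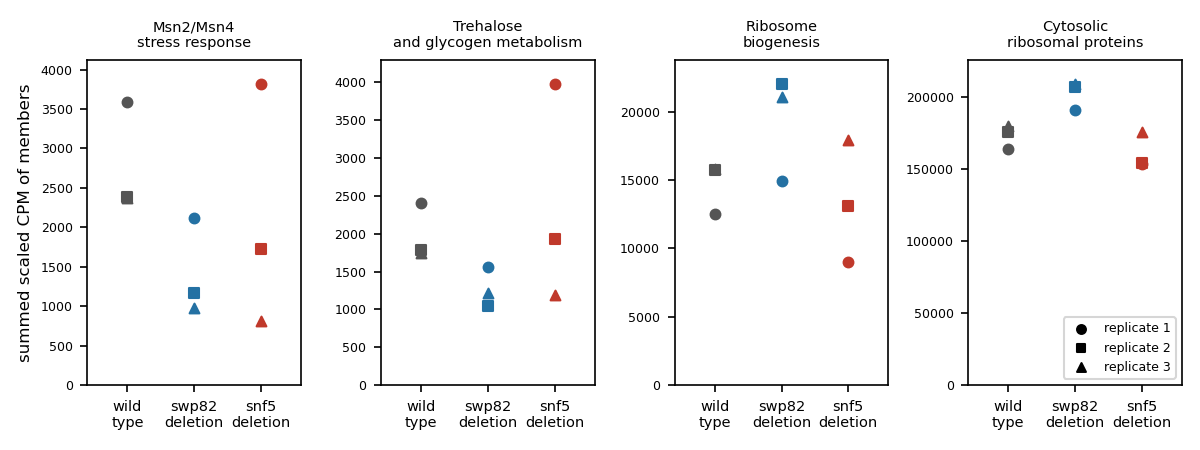
Summed level of the members of 4 gene lists in each library, in scaled CPM from 0, for the wild type, the swp82 deletion and the snf5 deletion; circles, squares and triangles are replicates 1, 2 and 3. Replicate 1 is the highest of each group for stress genes and the lowest for ribosome biogenesis, and the ribosomal proteins alone of these 4 lists separate the snf5 from the swp82 libraries.

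Other amino acid genes gave mixed results. Of 24 genes of histidine, lysine and aromatic amino acid synthesis 11 rose and 3 fell (14 and 1 without the scaling factor); TRP1 and HIS2 rose by 0.53 and 0.54, and 6 of the 13 members with a Gcn4 site rose against 5 of 11 without. Without snf5 replicate 3, 6 of them fell. Among 20 permeases 6 rose and 6 fell, where 20.4% of all genes rose and 21.5% fell. PUT4, the proline permease, was at 20.9, 16.3 and 15.2 scaled CPM against 3.18, 2.90 and 2.84 (2.21 ± 0.16), and GAP1, the general permease, rose by 1.31. PTR2, the peptide transporter, was at 54.3, 35.9 and 27.5 against 169, 148 and 158 (-2.04 ± 0.18), and the branched-chain permease BAP2 fell by 1.48.

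In serine and one-carbon metabolism 5 of 15 rose and 7 fell. GCV1, of the glycine cleavage system, was at 18, 20.7 and 23.8 scaled CPM against 41.2, 40.4 and 38.2 (-0.91 ± 0.10), and the wild type was above both at 89.6. Of 14 purine genes 1 rose and 3 fell, neither count above the shares over all genes, 20.4% and 21.5%. With a replicate block 5 fell, and without the scaling factor 3 rose and 1 fell. IMD2, an IMP dehydrogenase with close copies, rose from 182, 273 and 259 to 573, 458 and 593 (1.20 ± 0.15). Without snf5 replicate 1 or 2, or swp82 replicate 2 or 3, 1 purine gene fell, and without snf5 replicate 3 or swp82 replicate 1 6 did.

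Of lipid genes, 8 of 23 in ergosterol synthesis rose and 4 fell (14 and 2 without the scaling factor), with the early enzymes HMG1 and ERG12 moving apart, by -1.0 ± 0.07 and 0.54 ± 0.05. Leaving out snf5 replicate 1 or swp82 replicate 3 left 2 that fell. In inositol and phospholipid synthesis 7 of 23 rose (14 without the scaling factor) and 1 fell, CHO2, the first methylase of phosphatidylcholine synthesis, at 107, 89.7 and 94.6 scaled CPM against 232, 214 and 230 (-1.21 ± 0.07). A second gene of this list fell with a replicate block, without snf5 replicate 3 and without swp82 replicate 1. Among heme and oxygen genes 8 of 20 fell, YHB1 and TIR1 among them, and 4 rose, close to the 20.4% of all genes that rose.

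For cyclins, HO and genes of daughter cells 9 of 23 fell and 3 rose, where 21.5% of all genes fell and 20.4% rose. ASH1, which represses HO in daughter cells, was at 132, 124 and 142 scaled CPM against 257, 236 and 197 (-0.79 ± 0.09), so HO and its repressor were both lower. Without snf5 replicate 1 or swp82 replicate 2, 1 of this list rose, and without the scaling factor 7 rose and 8 fell. Among 11 histone genes 4 rose (8 without the scaling factor) and 1 fell, HTA1, an H2A gene with a near-identical copy, by 0.41; 3 fell without snf5 replicate 3 and 2 without swp82 replicate 1. Of 17 subunit genes of RSC, the related remodeler, 3 rose and 3 fell, neither count above the share of all genes. Without the scaling factor 10 rose and 2 fell. The RSC motor gene STH1 rose by 0.26 ± 0.05 (limma adjusted p = 0.00152). Of 66 mitochondrial ribosomal protein genes 2 rose and 12 fell, both below the share of all genes, with a median of -0.07. Without the scaling factor that median was 0.09, 16 rose and 1 fell. None rose without snf5 replicate 2, 1 without swp82 replicate 2 or swp82 replicate 3, and 4 without swp82 replicate 1.

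**Figure D5:**
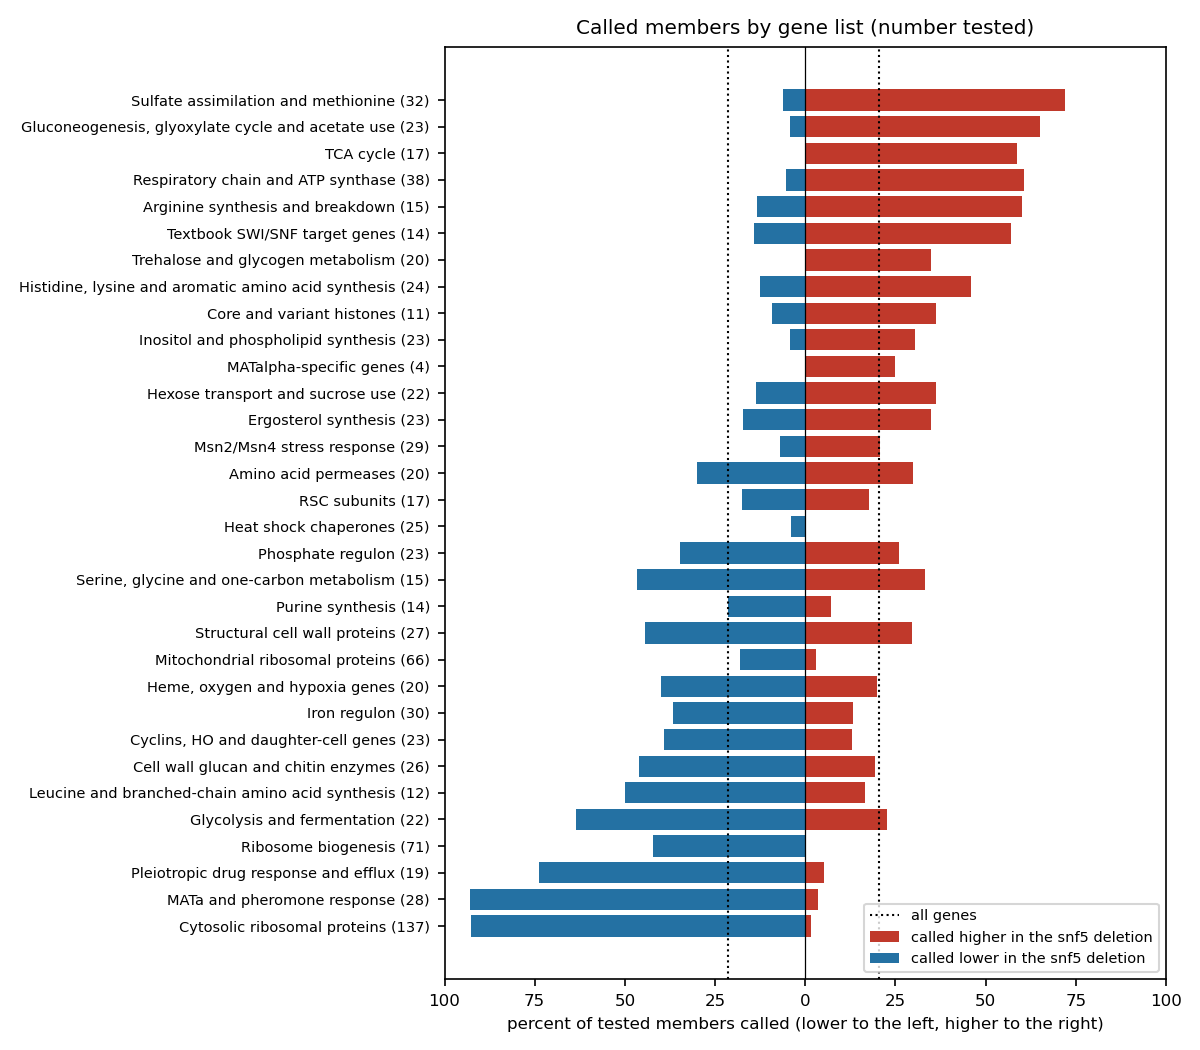
Percent of tested members of each gene list called higher (red, to the right) and lower (blue, to the left) in the snf5 deletion, with the number tested in brackets and dotted lines at the shares over all genes, 20.4% and 21.5%. Lists at the top are mostly higher, and the cytosolic ribosomal proteins, mating genes and drug efflux genes at the bottom mostly lower.

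The authors' deposited table of filtered genes holds 506 genes. It gives means of all 4 groups from the same libraries, so its genes need not differ in this comparison. Of the 506, 250 are among the 299 genes called here at 2-fold or more, 49.4% of the authors' list and 83.6% of the 299. Those 299 are 5.14% of all genes tested. The authors' deposited table gives no value per library, and it was used by membership only.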

How the data were processed

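Cultures were extracted by the hot acid phenol method and libraries were prepared with a stranded TruSeq mRNA kit, per the labels' protocols. Per the submitters' processing notes the tools were Bowtie2 2.1.0 with TopHat2 2.0.10 and, for expression, edgeR 3.8.6, on sacCer3. How reads were counted, with which strand setting and with what rule for several matches, was not stated there. The authors deposited scaled CPM, a signal in CPM divided by a scaling factor, for each library, and a second table of group means for filtered genes. From the deposited values whole reads were recovered for 100% of values (within 0.05 of a read). No column was left unmapped.

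Genes with at least 1 scaled CPM in at least 3 of 12 libraries were tested on log2(scaled CPM + 1) with limma 3.58.1 in R 4.3.3, with a mean-variance trend, all 4 groups sharing the spread (8 residual degrees of freedom) and Benjamini-Hochberg adjustment over 5820 genes. As the values are not counts, count tests on recovered reads (edgeR 4.0.16, DESeq2 1.42.0) were alternatives, as were other pseudocounts, filters, scalings, a replicate block, the 6 libraries alone and leaving out each replicate. The fit was tested on simulated reads that held no effect shared by replicates of the same number, so that test does not cover such effects. Deviations of same-numbered libraries of both deletions correlated at 0.66, 0.116 and 0.386 for replicates 1, 2 and 3, each over the 0.1 set for treating numbers as pairs. Snf5 replicate 3 and swp82 replicate 2, of different numbers, correlated at 0.549, so the pairing is a hint from the data and not stated by the labels. The main fit is by group only, and the replicate block was run as an alternative. Replicate libraries of one group differed by more than sampling noise and each counted once. Intervals and floors cover counting error only.

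Of the gene IDs 5685 matched assembly R64 and 250 did not; only the former have coordinates and windows. The members and lists were chosen with earlier results of these data known. RPP1 and MRP8, which match the names of ribosomal protein genes but encode other proteins, were taken off those lists after their values were seen. Genes named by rule were the subunit genes, LEU2 and HIS3, up to 15 with the highest and up to 15 with the lowest log2 fold change (called, 2-fold, no overlap, and a mean of 10 or more reads where the level is higher), and up to 4 called members of each list with the smallest p; others were named after their values were seen. URA3 and MET17 are not analysed here. A further gene is not reported by name here.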

Additional observations from a re-analysis of the deposited data

How the results depend on the processing

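Fitting the 6 libraries alone lowered the number of genes called from 2438 to 1314, 643 higher and 671 lower in the snf5 deletion; this fit has fewer samples. Without the authors' scaling factor 2282 genes were higher and 599 lower, since the median of all genes moved. The number at 2-fold or more and higher, 152, became 76 with a pseudocount of 5, 231 with edgeR and 235 with DESeq2, while the 147 lower genes stayed within 1.5 times under each alternative; the cause was not tested. Leaving out 1 library gave 1746 to 3033 genes called, 859 to 1462 higher and 887 to 1571 lower. At 2-fold or more it gave 133 to 209 higher and 139 to 178 lower. The highest total came without snf5 replicate 3 and the lowest without swp82 replicate 2. With the replicate block 2942 genes were called over 12 libraries, 1373 higher and 1569 lower, and 2290 over 6. Apart from the values given with the results, the block over 12 libraries changed the call of none of the 144 genes named by rule. Of 135 of these that were called 119 were called under every alternative, 16 were not called or not tested under at least 1, and none reversed. The count of called members in at least 1 direction moved by over 1.5 times in 19 of 33 gene lists without the scaling factor, 22 with the 6 libraries alone, 6 with the block, 3 with DESeq2 and 0 with edgeR. Depth limits the lowest genes, where 1 read is worth about 0.1 scaled CPM.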
